A study of Mus musculus with 18 samples.

Results

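Laminin chain genes were followed through RNA-seq libraries of mouse retinal pigment epithelium (RPE), the pigmented cell layer between the photoreceptors and the choroid. The members were 9 genes, *Lama1*, *Lama2*, *Lama3*, *Lama4*, *Lama5*, *Lamb1*, *Lamb2*, *Lamc1* and *Lamc3*, out of 52636 genes in the count table, and they were chosen by symbol with their levels in all 6 groups known. Because the levels chose the members, their levels and fold changes are given here as a description without P-values.

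The study asked which genes in the RPE change when the eye is made to grow too large in young mice. C57BL/6 mice were injected under the retina on the day of birth with AAV8 vectors driven by the RPE promoter *Best1*, and RNA was taken at postnatal day 14. The 6 groups were mice left uninjected, mice with a vector for GFP, mice with a vector for nSrebp2 (the nuclear, active part of SREBP2, the transcription factor that controls cholesterol genes), and mice with a vector for 1 of 3 hairpins: ctrl sh (labelled Laczsh), *Lrp2* sh1 or *Lrp2* sh2. LRP2 is an endocytic receptor whose loss enlarges the eye, and GFP and ctrl sh were the vector controls. Each group had 3 libraries, and each library pooled both eyes of 1 mouse. The cells were loosened with papain from eyecups freed of retina and optic nerve, so cells of the neighbouring choroid and sclera could be present, and the vector was delivered only to the cells it reached.

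The libraries held 8921885 to 13696934 counts, and a count of 0 would allow 3 counts, which is 0.219 to 0.336 counts per 1000000 counts (CPM) by library for counting error alone. *Srebf2*, which encodes SREBP2, stood at 217 CPM with nSrebp2 and at 101 CPM with GFP (log2 fold change 1.10, edgeR adjusted P = 0.000121). *Lrp2* was lower than its control with nSrebp2 (log2 fold change -2.18, edgeR adjusted P = 0.000233), with sh1 (-1.68, adjusted P = 0.00328) and with sh2 (-1.60, adjusted P = 0.00109). All 10 RPE markers checked, such as *Rpe65* and *Best1*, had counts in every group. By Y-linked counts the nSrebp2 mice were all male (2770 to 2901 counts) and the GFP mice all female (4 or fewer), so in that comparison the vector and the sex of the mice cannot be told apart from these 6 libraries. Replicate 3 of the uninjected mice and replicates 2 and 3 of *Lrp2* sh2 were also male, and the other libraries were female. Replicate 1 of the uninjected mice held 1039 CPM of 4 lens genes, against at most 9.77 CPM elsewhere.

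Laminins are the main adhesive glycoproteins of basement membranes. Each laminin is a cross-shaped trimer of 1 alpha, 1 beta and 1 gamma chain, named by its chains, so that laminin 511 holds alpha5, beta1 and gamma1. The alpha chain carries the globular end that binds integrins and dystroglycan on the cell surface, and the short arms of the chains link the trimers into a sheet. The RPE rests on a basement membrane that forms the inner face of Bruch's membrane, and vessels of the choroid have their own.

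The gamma chains differ at the very end of the protein, which matters for how cells grip a laminin. In the gamma1 chain a glutamate at the third position from the end is needed for binding by integrins, and gamma3 lacks it. The last coding bases of *Lamc3* are shown, without the stop codon, because *Lamc3* had the largest difference of the 9 chains with nSrebp2. They were read from its GENCODE M21 transcript on GRCm38, and capitals mark the third codon from the end, which is TGT and encodes cysteine.
Lamc3 (chr2:31945382-31945411, plus strand): ctgagcagtctgccagagaacTGTgccagc

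To compare genes with each other, CPM was divided by the length of all exons of the gene in kb. On this per-length scale, averaged over the 18 libraries, the level of *Lamc1* was 120 CPM per kb and that of *Lamb2* was 103 CPM per kb. *Lama2* followed at 52.6 and *Lamb1* at 47.2 CPM per kb. *Lamc3* (33.4), *Lama5* (27.7) and *Lama4* (27.6) lay close together by this length only. With the longest transcript as the length *Lama4* was at 55.1, *Lamc3* at 34.7 and *Lama5* at 27.7 CPM per kb. By that length *Lama2* was at 89.5 and *Lamb1* at 80.9 CPM per kb. *Lama3* at 3.96 and *Lama1* at 2.14 CPM per kb were far lower, and *Lamb3*, which was no member, was lower still at 0.518. The leading chains of each class were thus *Lama2*, *Lamb2* and *Lamc1* in these tissues. In such bulk samples, fewer cells of a type and less RNA per cell cannot be told apart.

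**Figure D1:**
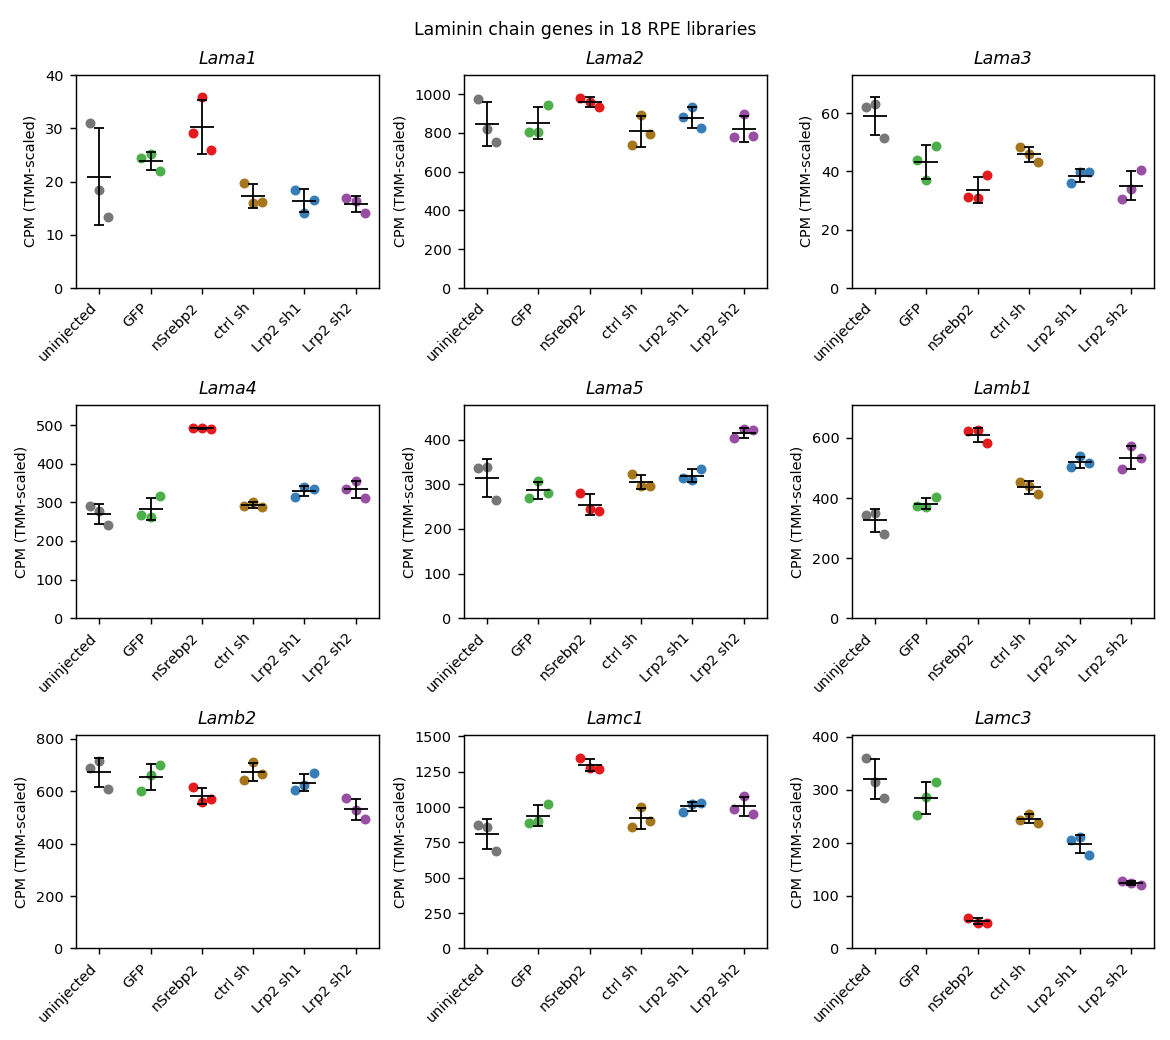
Level of each of the 9 laminin chain genes in CPM (vertical axes, from 0) in the 6 groups (horizontal axes). Each point is 1 library, and the black marks are the mean and SD of 3 libraries. *Lamc3* lies at 48.1 to 58.0 CPM in the nSrebp2 libraries and at 119.5 CPM or more in all others, while *Lama4*, *Lamb1* and *Lamc1* are highest with nSrebp2.

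*Lamc3* encodes the gamma3 chain, and the gene lies on chromosome 2 of GRCm38 from 31887291 to 31946539 on the plus strand. With nSrebp2 it had 58.0, 48.1 and 48.2 CPM in replicates 1 to 3. With GFP it had 253, 286 and 314 CPM. Every GFP library lay far above every nSrebp2 library, and the log2 fold change was -2.47 (SE 0.10).

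In the hairpin arm the same gene had 243, 255 and 238 CPM with ctrl sh. It had 205, 210 and 177 CPM with *Lrp2* sh1 and 127, 124 and 120 CPM with *Lrp2* sh2. The 3 groups did not overlap, and both hairpins lay below their control. The log2 fold change against ctrl sh was -0.31 (SE 0.07) with sh1 and -0.98 (SE 0.06) with sh2. Directly compared, sh2 was lower than sh1 by a log2 fold change of -0.67 (SE 0.07), although *Lrp2* itself was at 36.9 CPM with sh1 and 38.7 CPM with sh2.

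The uninjected mice had 360, 315 and 285 CPM of *Lamc3*. The order of the group means from high to low was uninjected, GFP, ctrl sh, *Lrp2* sh1, *Lrp2* sh2 and nSrebp2. Uninjected and GFP overlapped, as did GFP and ctrl sh, and every later step in this order had no overlap. Against the uninjected mice the log2 fold change was -0.19 (SE 0.12) for GFP and -0.41 (SE 0.10) for ctrl sh, so part of the range lay between the controls. In total 382 exon bases of *Lamc3* are overlapped by *Gm13441* on the opposite strand, and its count is uncertain by the reads that fall there.

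*Lamc1* encodes gamma1, the gamma chain of most laminins, and lies on chromosome 1 from 153218922 to 153332786 on the minus strand. It had 1348, 1278 and 1270 CPM with nSrebp2, and 888, 903 and 1022 CPM with GFP. All nSrebp2 libraries lay above all others, and the log2 fold change against GFP was 0.47 (SE 0.08). With ctrl sh it had 859, 1003 and 903 CPM, with sh1 968, 1021 and 1026 CPM, and with sh2 987, 1076 and 949 CPM, so that each hairpin group overlapped its control. The log2 fold changes there were 0.12 (SE 0.07) for sh1 and 0.13 (SE 0.09) for sh2.

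Set side by side, *Lamc1* and *Lamc3* differed in their proportions more than in their sum. The summed per-length level of the pair was 142 to 165 CPM per kb in the 6 group means. *Lamc3* made up 34.97% ± 1.57 (SD, n = 3) of it in uninjected mice, 29.2% ± 1.14 with GFP and 5.09% ± 0.371 with nSrebp2. The share was 26.6% ± 1.07 with ctrl sh and 14.3% ± 0.705 with sh2, and 22.3%, 21.9% and 18.998% in the 3 sh1 libraries. The nSrebp2 libraries had the lowest shares and the uninjected libraries the highest, without overlap with any other group.

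**Figure D2:**
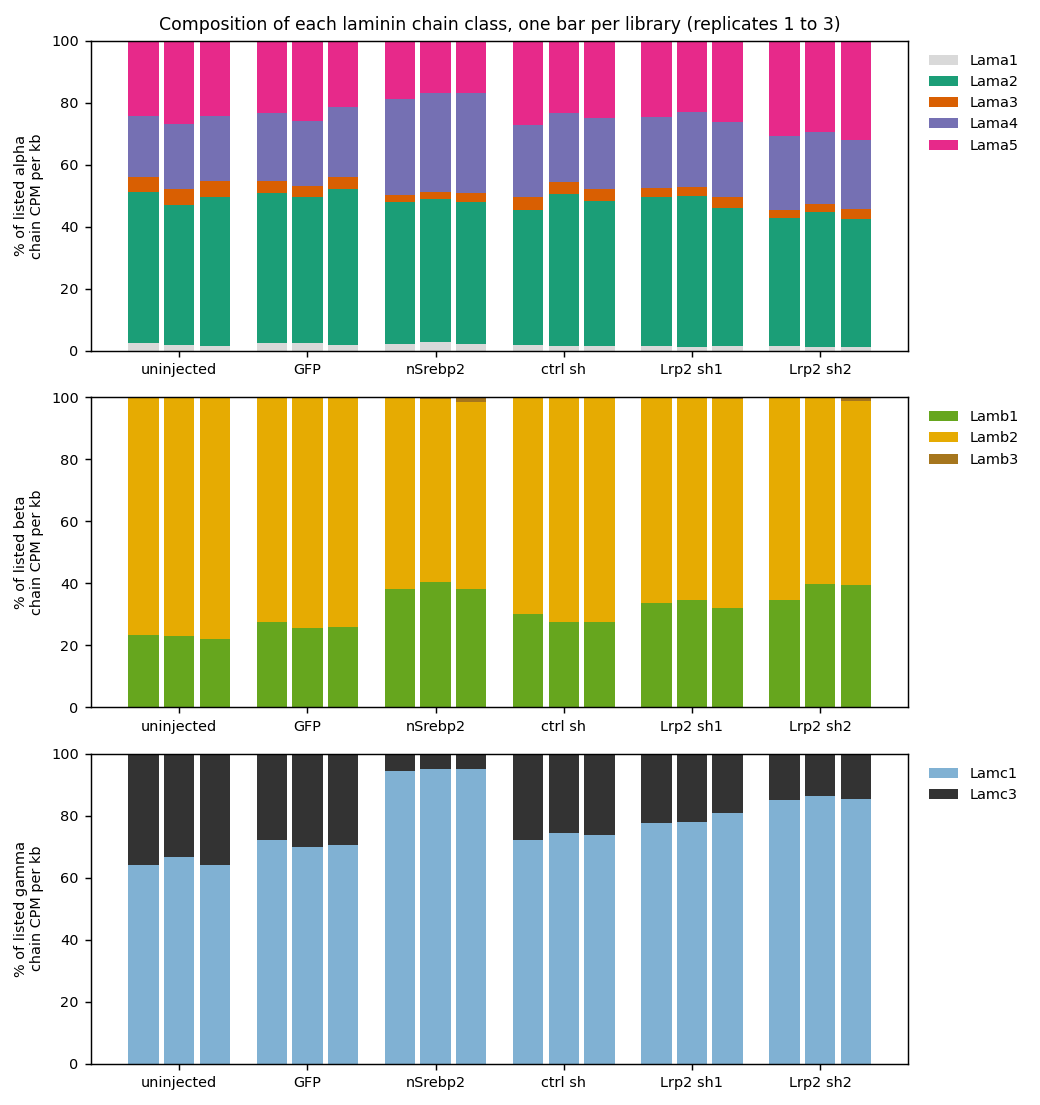
Share of each chain in its class (vertical axes, percent of summed CPM per kb of the chains drawn) for alpha, beta and gamma chains, with 1 bar per library and replicates 1 to 3 from left to right in each group. The black *Lamc3* part of the gamma bars averages 34.97% in uninjected mice and 5.09% with nSrebp2.

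*Lamb1* encodes beta1, the beta chain of most laminins, and lies on chromosome 12 from 31265234 to 31329644 on the plus strand. It had 623, 626 and 584 CPM with nSrebp2, against 372, 371 and 402 CPM with GFP. The groups did not overlap and the log2 fold change was 0.68 (SE 0.07). In the hairpin arm it had 455, 442 and 412 CPM with ctrl sh, 503, 539 and 515 CPM with sh1 and 497, 573 and 533 CPM with sh2.

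Both hairpin groups thus lay above ctrl sh without overlap, with log2 fold changes of 0.25 (SE 0.06) for sh1 and 0.30 (SE 0.08) for sh2. The uninjected libraries were lowest, at 345, 350 and 281 CPM. The log2 fold change against them was 0.21 (SE 0.10) for GFP and 0.40 (SE 0.10) for ctrl sh.

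*Lamb2* encodes beta2, the beta chain of synaptic and other mature basement membranes, and lies on chromosome 9 from 108479736 to 108490530 on the plus strand. It had 616, 560 and 571 CPM with nSrebp2 and 602, 662 and 702 CPM with GFP, which overlap (log2 fold change -0.17, SE 0.08). With sh2 it had 575, 527 and 494 CPM, below the 642, 711 and 668 CPM with ctrl sh (log2 fold change -0.33, SE 0.08). With sh1 it had 605, 625 and 670 CPM, which overlap with ctrl sh (-0.09, SE 0.07). As a share of the beta class, *Lamb1* made up 22.8% ± 0.720 (SD, n = 3) in uninjected mice, 26.3% ± 1.014 with GFP and 38.9% ± 1.39 with nSrebp2. The share was 28.4% ± 1.59 with ctrl sh, 33.4% ± 1.37 with sh1 and 38.0% ± 2.96 with sh2. These shares depend on the length used. By the longest transcript *Lamb1* made up 31.9% in uninjected mice, 36.2% with GFP and 50.1% with nSrebp2, where *Lamb2* made up 49.1%. By that length it was 38.6% with ctrl sh, 44.3% with sh1 and 49.2% with sh2.

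Of the alpha chains, *Lama4* had the largest difference with nSrebp2. It encodes alpha4, the alpha chain of vessels and mesenchymal cells, which has a short amino-terminal arm, and lies on chromosome 10 from 38965515 to 39110188 on the plus strand. It had 491, 493 and 489 CPM with nSrebp2, against 268, 263 and 316 CPM with GFP. All nSrebp2 libraries lay above all others and the log2 fold change was 0.79 (SE 0.08). With ctrl sh it had 291, 302 and 287 CPM, with sh1 314, 339 and 334 CPM and with sh2 335, 355 and 312 CPM, with log2 fold changes of 0.17 (SE 0.06) for sh1 and 0.20 (SE 0.07) for sh2. Both hairpin groups lay just above ctrl sh without overlap.

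*Lama5* encodes alpha5, the alpha chain of laminins 511 and 521 in epithelial and vessel basement membranes, and lies on chromosome 2 from 180176373 to 180225859 on the minus strand. It differed mainly with sh2, which gave 403, 423 and 421 CPM against 322, 295 and 296 CPM with ctrl sh. The sh2 libraries lay above all others, and the log2 fold change was 0.46 (SE 0.06). With sh1 the libraries had 314, 309 and 335 CPM and overlapped the control (log2 fold change 0.07, SE 0.06), and sh2 compared directly with sh1 gave 0.39 (SE 0.06). With nSrebp2 it had 280, 244 and 239 CPM and with GFP 269, 308 and 281 CPM, which overlap (-0.17, SE 0.08).

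*Lama2* encodes alpha2, the chain of muscle and nerve laminins that binds dystroglycan, and lies on chromosome 10 from 26980036 to 27619758 on the minus strand. It varied least by group mean, from 807 CPM with ctrl sh to 959 CPM with nSrebp2. The groups overlapped in all comparisons, with log2 fold changes of 0.17 (SE 0.08) with nSrebp2, 0.12 (SE 0.08) with sh1 and 0.03 (SE 0.10) with sh2. *Gm48084* overlaps 631 of its exon bases on the opposite strand.

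*Lama3* encodes alpha3, an alpha chain of epithelia, and lies on chromosome 18 from 12333819 to 12583013 on the plus strand. It was highest without injection, at 62.2, 63.1 and 51.4 CPM, and lower in all vector groups, whose means were 33.6 to 45.8 CPM. With ctrl sh it had 48.3, 46.0 and 43.2 CPM, and with sh2 30.7, 34.1 and 40.4 CPM, which do not overlap (log2 fold change -0.38, SE 0.10). With sh1 it had 36.1, 39.8 and 39.8 CPM, also without overlap (-0.25, SE 0.07). The nSrebp2 libraries (31.2, 31.0 and 38.7 CPM) and the GFP libraries (43.8, 37.1 and 48.6 CPM) overlapped (-0.37, SE 0.12). *Gm29200* overlaps 197 exon bases on the opposite strand.

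*Lama1* encodes alpha1, the alpha chain of the laminin of early embryos, and lies on chromosome 17 from 67697259 to 67822647 on the plus strand. It was the lowest member, with 13.3 to 35.8 CPM over the 18 libraries. With nSrebp2 it had 29.1, 35.8 and 25.9 CPM against 24.4, 25.1 and 22.1 CPM with GFP (log2 fold change 0.34, SE 0.13), and these groups did not overlap by a narrow margin. With a term for sex in a fit of all 18 libraries this value was 0.84, more than 1.5 times as large. That term rests on the uninjected and sh2 groups, the only ones with both sexes, so 0.84 is no sex-corrected effect of the vector. The uninjected libraries spread widely at 31.1, 18.5 and 13.3 CPM, and the highest of them was the library with the lens genes. The hairpin groups overlapped their control, with log2 fold changes of -0.08 (SE 0.13) for sh1 and -0.12 (SE 0.13) for sh2, and the sex term turned the latter to 0.21.

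**Figure D3:**
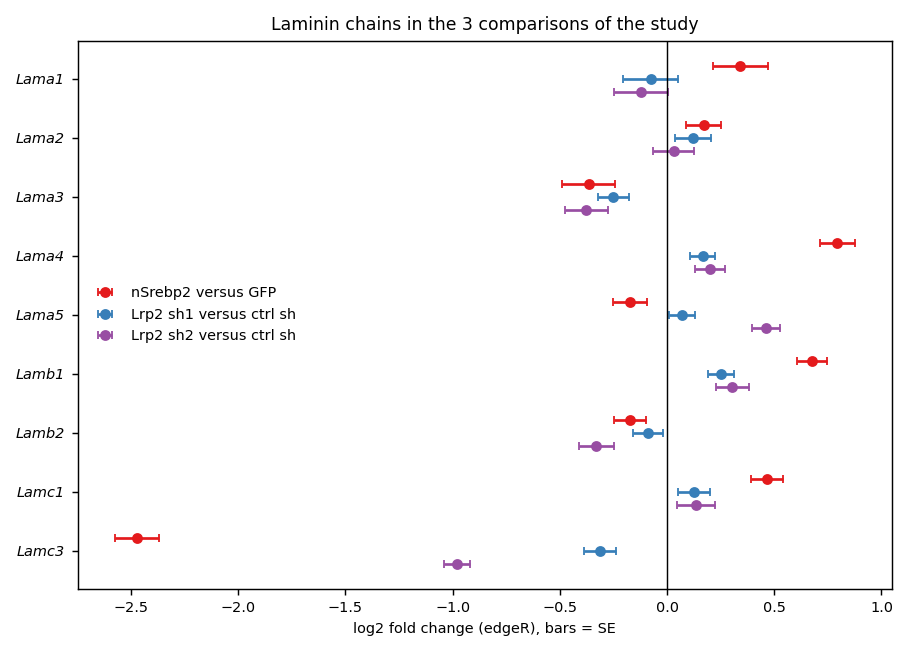
Log2 fold change (horizontal axis) of the 9 laminin chains (vertical axis) in 3 comparisons, as edgeR estimates with bars of 1 SE. *Lamc3* lies left of 0 in all 3, at -2.47 with nSrebp2, -0.31 with sh1 and -0.98 with sh2, and *Lamb1* lies right of 0 in all 3.

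By the rule for a call used here, an edgeR adjusted P under 0.05 with an absolute log2 fold change above 1, 1 of the 9 chains was called with nSrebp2 (*Lamc3*), beside 6.67% of all genes tested. With sh1 0 chains were called beside 0.994% of all genes, and with sh2 0 beside 4.76%. DESeq2 called the same number of chains in each. By the adjusted P alone, without a limit on the fold, 4 chains passed with nSrebp2: *Lama4*, *Lamb1* and *Lamc1* higher, beside 12.6% of all genes, and *Lamc3* lower, beside 8.47%. With sh1 2 chains passed (*Lamb1* and *Lamc3*) beside 5.33%, and with sh2 5 (*Lama3*, *Lama5*, *Lamb1*, *Lamb2* and *Lamc3*) beside 18.1%. The number of chains whose groups did not overlap was 5 with nSrebp2, 4 with sh1 and 6 with sh2, beside 37.5%, 25.1% and 36.8% of all genes. Without any 1 library, the number of chains past the adjusted P alone ran from 4 to 6 with nSrebp2, from 0 to 2 with sh1 and from 2 to 5 with sh2. With sh1 it was 0 without any 1 of the sh1 libraries, or without replicate 2 or 3 of ctrl sh, and with sh2 it was 2 without sh2 replicate 2 or without replicate 2 or 3 of ctrl sh and 3 without sh2 replicate 3. As these contrasts were known when the chains were chosen, nothing is read from these counts.

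The median log2 fold change of the 9 chains was 0.17 with nSrebp2, 0.07 with sh1 and 0.03 with sh2, and over all genes it was -0.02, -0.01 and 0.01. GFP and ctrl sh as such, against uninjected mice, gave 0 called chains each, beside 1.41% and 2.39% of all genes. By the adjusted P alone 0 chains passed with GFP, beside 2.48%, and 2 with ctrl sh (*Lama3*, log2 fold change -0.39, and *Lamc3*), beside 6.49%, and with ctrl sh it was 0 without any 1 of its libraries or without replicate 1 or 2 of the uninjected mice. Between the hairpins 0 chains were called beside 5.13%, and by the adjusted P alone *Lama5*, *Lamb2* (log2 fold change -0.25) and *Lamc3* passed, beside 22.4% of all genes. The comparisons with sh1 and sh2 share the ctrl sh libraries. Set against uninjected mice in place of the vector controls, 1 chain was called with nSrebp2, 0 with sh1 and 1 with sh2, beside 10.6%, 6.58% and 8.04% of all genes.

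With a term for sex, fitted over all 18 libraries, the log2 fold change with nSrebp2 against GFP was -2.33 for *Lamc3*, 0.91 for *Lama4*, 0.74 for *Lamb1* and 0.60 for *Lamc1*. For *Lamb2* it turned from -0.17 to 0.00484, and for *Lama5* it was -0.04 in place of -0.17. Only the uninjected and sh2 groups held both sexes, so the sex term was estimated from those groups alone. Values with the sex term, here and below, therefore show how far the fit depends on those libraries and do not separate sex from vector. With sh2 against ctrl sh the value of *Lamc3* was -0.89 in that fit, that of *Lamc1* was 0.22 in place of 0.13, that of *Lamb2* was -0.22 in place of -0.33, that of *Lama2* was 0.07 in place of 0.03, and that of *Lama1* turned from -0.12 to 0.21. Between the hairpins *Lamb2* was at -0.13 in that fit, in place of -0.25. Without replicate 1 of sh2, or without replicate 3 of ctrl sh, *Lamc3* with sh2 passed the limit on the fold, and its log2 fold change without any 1 library ran from -1.005 to -0.948.

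Markers of other cell types moved with some of these groups. The summed level of 8 fibroblast markers (such as *Col1a1* and *Dcn*) was 71046 to 86421 CPM with nSrebp2 and 34456 to 43832 CPM with GFP, and 7 of 8 were higher by edgeR's adjusted P. It was 44432 to 53701 CPM with sh1 and 42516 to 50728 CPM with sh2, against 33271 to 46980 CPM with ctrl sh, and 0 and 3 of the 8 were higher. The 10 endothelial markers summed to 1525 to 1619 CPM with nSrebp2 and 1965 to 2516 CPM with GFP, with 7 of 10 lower, and to 1404 to 1485 CPM with sh2 and 2118 to 2244 CPM with ctrl sh, with 9 of 10 lower. With sh1 they summed to 1965 to 2097 CPM, below every ctrl sh library, with 1 of 10 lower. The 9 markers of mural cells of vessels summed to 2285 to 2640 CPM with nSrebp2 and 2892 to 3774 CPM with GFP, with 4 of 9 lower. They summed to 2594 to 2873 CPM with sh1, 2457 to 2997 CPM with sh2 and 3218 to 3443 CPM with ctrl sh. Of the 9, 3 were lower with sh1, and 5 were lower and 1 higher with sh2. The 10 RPE markers summed to 2289 to 3105 CPM with nSrebp2 and 2774 to 2994 CPM with GFP, with 2 of 10 higher and 3 lower. They summed to 2190 to 2504 CPM with sh2 and 3872 to 5519 CPM with ctrl sh, with 6 of 10 lower, and to 3319 to 3677 CPM with sh1, below every ctrl sh library, with 1 of 10 lower. In uninjected mice they summed to 3779 to 8823 CPM, above every GFP library, and against them 6 of 10 were lower with GFP and 0 with ctrl sh. The 8 macrophage markers summed to 593 to 636 CPM with nSrebp2 and 360 to 419 CPM with GFP, with 7 of 8 higher. They summed to 420 to 522 CPM with sh2, 322 to 349 CPM with sh1 and 380 to 391 CPM with ctrl sh, with 2 of 8 higher with sh2 and 1 of 8 lower with sh1. The 10 rod photoreceptor markers summed to 245 to 347 CPM with nSrebp2 and 38.1 to 311 CPM with GFP, with 1 of 10 higher. They summed to 79.9 to 418 CPM with sh2 and 43.7 to 65.0 CPM with ctrl sh, with 8 of 10 higher. With sh1 they summed to 34.8 to 66.7 CPM, and 0 of 9 tested passed against ctrl sh. Between the hairpins 8 of 10 were higher with sh2. The fibroblast sum was above the RPE sum in every library. No macrophage, fibroblast, endothelial or RPE marker was at 0 in any group. By the adjusted P alone, 12.6% of all genes were higher and 8.47% lower with nSrebp2. With sh1 3.06% were higher and 2.28% lower, and with sh2 8.59% and 9.48%. Against uninjected mice 2.48% of all genes passed with GFP and 6.49% with ctrl sh. The part of these cell types in the laminin differences was not tested.

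Several chains moved together from library to library. Pearson's r of log2 CPM over the 18 libraries was 0.95 between *Lama4* and *Lamc1*, 0.87 between *Lamb1* and *Lamc1*, and 0.85 between *Lama4* and *Lamb1*. *Lamc3* ran against them, with r of -0.92 to *Lama4*, -0.83 to *Lamc1* and -0.82 to *Lamb1*. Inside the groups the sign of the latter was the opposite: with each library set to its difference from its group mean, r of *Lamc3* was 0.58 to *Lama4*, 0.62 to *Lamc1* and 0.50 to *Lamb1*. The negative values thus come from the group means. Of the 36 pairs of chains, 9 had r over 0.5. The 18 points share 6 groups, so r is given as a description.

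Among 15027 other genes, those whose log2 CPM was most like that of *Lamc3* over the 18 libraries were *Sp7* (r = 0.98), *Six3os1* (0.98) and *Alkal2* (0.97). For *Lamc1* they were the fibrillar and microfibrillar collagen genes *Col5a2* (0.97) and *Col6a3* (0.97) with *Itpripl2* (0.97), and for *Lamb1* the microfibril gene *Fbn1* (0.96), *Lrrc59* (0.96) and *Surf4* (0.95). *Lama4* was most like *Gpr153* (0.98), *Adam19* (0.98) and *Eif2ak3* (0.97). *Lama5* was most like *Magee1* (0.90), *Ppm1e* (0.89) and *Cald1* (0.89), and *Lamb2* most like *Slc9a3r2* (0.92), *Nova2* (0.91) and *Dab2ip* (0.91). For *Lama2* the genes were *Nfia* (0.87), *Piezo2* (0.83) and *Nhsl2* (0.83), for *Lama3* *Thsd4* (0.92), *Jag2* (0.92) and *Kcnq1* (0.91), and for *Lama1* *Arhgef6* (0.81), *Rap1gap2* (0.78) and *Grk2* (0.78). With each library set to its difference from its group mean, r with *Lamc3* was 0.57 for *Sp7*, 0.14 for *Six3os1* and 0.36 for *Alkal2*. That likeness thus lay largely in the group means. Over all the genes named here this r ran from 0.14 to 0.98 (*Piezo2* with *Lama2*).

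SREBP2 binds sterol regulatory elements and E-boxes, so the promoters of the chains were searched on both strands for a classic element (TCACCCCAC), a short SRE-like motif (GTGGGG), the E-box CACGTG and the GC box GGGCGG. RefSeq promoters on GRCm38.p6 ran from 250 bases before to 50 after the start. The search used those of 4 of the 9 chains. Promoters of the other chains were left out, so their motifs were not tested. The 4 searched were *Lama2*, *Lama5*, *Lamb1* and *Lamb2*. TCACCCCAC was in none of these 4, and in 0.551% of 32851 promoters. CACGTG was in none, and in 7.15% of all. GTGGGG was found once each in *Lama2*, *Lamb1* and *Lamb2* and in 28.7% of all promoters. GGGCGG was found 4 times in *Lama5*, 2 times in *Lamb1* and once in *Lama2*, and in 35.7% of all. That of *Lamb1* is shown, as that of the gene with the largest log2 fold change of these 4 with nSrebp2, with the reverse complements of GTGGGG and GGGCGG in capitals.
Lamb1 (chr12:31265043-31265342, plus strand): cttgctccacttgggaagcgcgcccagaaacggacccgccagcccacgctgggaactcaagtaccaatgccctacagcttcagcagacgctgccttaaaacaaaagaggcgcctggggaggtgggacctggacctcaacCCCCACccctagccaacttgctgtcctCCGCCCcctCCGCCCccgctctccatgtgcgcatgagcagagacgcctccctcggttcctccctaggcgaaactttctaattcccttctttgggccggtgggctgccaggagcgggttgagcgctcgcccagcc

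The laminin chain *Lamb3*, a beta chain of epithelia, was no member and was low. *Lamb3* had 4.23, 4.27 and 14.99 CPM with nSrebp2 and 1.02, 1.60 and 1.13 CPM with GFP, and rose by a log2 fold change of 2.64 (SE 0.53, edgeR adjusted P = 0.00646). With sh1 *Lamb3* had 1.03, 0.992 and 5.36 CPM. Replicate 3 stood above the other two in the nSrebp2, sh1 and sh2 groups, and without that of nSrebp2 the value was 1.77 (edgeR adjusted P = 0.00370). The sex term ended the call (2.04, edgeR adjusted P = 0.266). *Lamb3* with sh2 had 2.80, 2.10 and 10.2 CPM and with ctrl sh 2.10, 3.59 and 1.18 CPM, and did not pass (1.13, edgeR adjusted P = 0.225).

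The partners of laminins were described by lists chosen from general knowledge: 20 basement membrane proteins, 6 collagen IV chains, 15 laminin receptors and 14 enzymes that build the laminin-binding sugar of dystroglycan, which with *Lamb3* made 56 genes. With nSrebp2 4 of 56 were called, 1 higher and 3 lower, beside 4.71% and 1.96% of all genes. By the adjusted P alone 16 were higher and 12 lower, beside 12.6% and 8.47% of all genes. With sh1 edgeR and DESeq2 called 0, with 24 at an unadjusted p under 0.05 in edgeR, and by the adjusted P alone 1 was higher and 9 lower, beside 3.06% and 2.28% of all genes. With sh2 4 were called, 1 higher and 3 lower, beside 2.98% and 1.78% of all genes, and by the adjusted P alone 11 were higher and 13 lower, beside 8.59% and 9.48% of all genes. The median log2 fold change of the 56 was -0.01 with nSrebp2, 0.04 with sh1 and -0.02 with sh2. By the adjusted P alone 2 of the 56 passed for GFP against uninjected mice, 7 for ctrl sh against uninjected mice and 21 between the hairpins, beside 2.48%, 6.49% and 22.4% of all genes. Against uninjected mice in place of the vector controls, 10 were called with nSrebp2, 2 with sh1 and 3 with sh2, beside 10.6%, 6.58% and 8.04% of all genes.

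**Figure D4:**
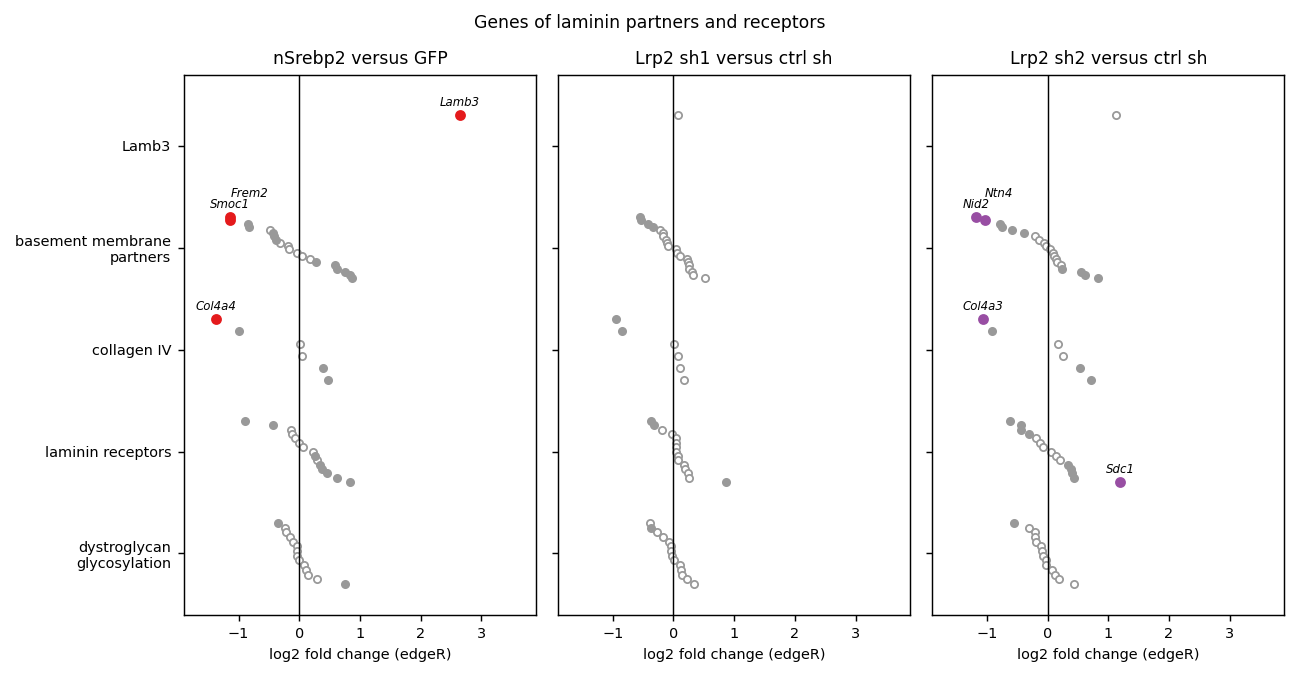
Log2 fold change (horizontal axis) of 56 genes of laminin partners and receptors, grouped by list (vertical axis), in 3 comparisons. Coloured, named points were called (adjusted P under 0.05 and absolute log2 fold change above 1), grey points passed the adjusted P alone and open points did not, and sh1 has 0 named points against 4 each for nSrebp2 and sh2.

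The nidogens bind the gamma1 chain and tie laminin to collagen IV. *Nid1* had 1143, 1073 and 1131 CPM with nSrebp2, against 584, 595 and 684 CPM with GFP, and was higher by a log2 fold change of 0.84 (SE 0.08, edgeR adjusted P = 8.9e-05). Its groups did not overlap, and the change stayed under the limit on the fold. With sh1 it differed by 0.25 (edgeR adjusted P = 0.115) and with sh2 by 0.22 (edgeR adjusted P = 0.122).

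*Nid2* had 296, 242 and 219 CPM with nSrebp2 and 307, 310 and 240 CPM with GFP, which overlap (log2 fold change -0.18, edgeR adjusted P = 0.353). With ctrl sh it had 515, 416 and 464 CPM and with sh2 179, 218 and 215 CPM, and fell by 1.18 on the log2 scale (SE 0.10, edgeR adjusted P = 0.000137). With sh1 it had 523, 617 and 596 CPM (0.32, edgeR adjusted P = 0.0776). The uninjected mice had 187, 247 and 213 CPM, near the level with sh2. Ctrl sh was thus higher than uninjected mice by 1.09 (SE 0.12, edgeR adjusted P = 0.00478), and against uninjected mice sh2 differed by -0.09 (edgeR adjusted P = 0.622) and sh1 by 1.41 (edgeR adjusted P = 0.000142).

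Of the large proteoglycans, *Hspg2* (perlecan) had means of 2763 CPM with nSrebp2 and 2270 CPM with GFP (log2 fold change 0.28, SE 0.08, edgeR adjusted P = 0.0350). *Agrn* (agrin, which bridges laminin and dystroglycan) differed by 0.04 with nSrebp2 (edgeR adjusted P = 0.742) and by 0.23 with sh2 (edgeR adjusted P = 0.0354). With sh1 *Hspg2* differed by 0.11 (edgeR adjusted P = 0.520) and *Agrn* by -0.10 (edgeR adjusted P = 0.403). *Hspg2* with sh2 differed by 0.08 (edgeR adjusted P = 0.594). *Agrn* with sh2 missed the adjusted P in each fit without 1 library (edgeR adjusted P = 0.0590 to 0.118). *Hspg2* with nSrebp2 missed it in each such fit (edgeR adjusted P = 0.0907 to 0.129) except that without GFP replicate 3 (adjusted P = 0.00521), and with the sex term its value was 0.48 (adjusted P = 0.0522).

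Of the 20 basement membrane proteins, 6 were higher and 7 lower by the adjusted P alone with nSrebp2, beside 12.6% and 8.47% of all genes. With sh2 4 were higher and 6 lower, beside 8.59% and 9.48%. *Smoc1*, a calcium-binding matrix protein, had means of 181 CPM with nSrebp2 and 397 CPM with GFP and fell by 1.14 on the log2 scale (SE 0.10, edgeR adjusted P = 6.8e-05). *Smoc1* was also lower with sh1 (-0.42, edgeR adjusted P = 0.00800) and with sh2 (-0.75, edgeR adjusted P = 0.000206), under the limit on the fold. *Frem2*, of the Fraser complex that anchors epithelia, was at 159 CPM with GFP and 72.8 CPM with nSrebp2 (log2 fold change -1.14, SE 0.11, edgeR adjusted P = 0.000136). *Frem2* was also lower with sh1 (-0.54, edgeR adjusted P = 0.0146) and with sh2 (-0.58, edgeR adjusted P = 0.0147), under the limit on the fold. It missed the adjusted P with sh1 without sh1 replicate 1 or 2 or ctrl sh replicate 3. With sh2 it missed without ctrl sh replicate 2 or 3, and the sex term ended both. *Ntn4*, a netrin that joins the laminin network, had means of 93.1 CPM with sh2 and 192 CPM with ctrl sh (log2 fold change -1.03, SE 0.07, edgeR adjusted P = 6.1e-05). This call went under the limit on the fold without sh2 replicate 2 (-0.98) or ctrl sh replicate 3 (-0.99) and against uninjected mice (-0.52). *Ntn4* was also lower with nSrebp2 (-0.84, edgeR adjusted P = 0.000442) and with sh1 (-0.34, edgeR adjusted P = 0.0175). The sh1 value missed the adjusted P without sh1 replicate 1 or 2 or ctrl sh replicate 3, and with the sex term. Against uninjected mice *Ntn4* with sh1 was at 0.18 (edgeR adjusted P = 0.144).

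Collagen IV forms the other network of basement membranes. The common chains *Col4a1* and *Col4a2* had means of 2042 and 1578 CPM with nSrebp2 and of 1462 and 1207 CPM with GFP. *Col4a1* was higher by 0.48 (SE 0.09, edgeR adjusted P = 0.00591) and *Col4a2* by 0.38 (SE 0.09, edgeR adjusted P = 0.0143). *Col4a2* missed the adjusted P without nSrebp2 replicate 1 (edgeR adjusted P = 0.0515) or 2 (adjusted P = 0.0511), or without GFP replicate 2 (adjusted P = 0.0803). Set against uninjected mice, nSrebp2 gave 0.33 for *Col4a1* (edgeR adjusted P = 0.193) and 0.28 for *Col4a2* (adjusted P = 0.195). With sh1 they differed by 0.17 (edgeR adjusted P = 0.180) and 0.11 (adjusted P = 0.409), and with sh2 by 0.26 (adjusted P = 0.0666) and 0.18 (adjusted P = 0.185).

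The rarer chains *Col4a3* and *Col4a4*, which form a network with alpha5(IV) in some epithelia, were lower than with the vector controls in the 3 comparisons. *Col4a4* had 72.4, 62.5 and 57.5 CPM with nSrebp2 and 187, 179 and 132 CPM with GFP (log2 fold change -1.38, SE 0.13, edgeR adjusted P = 0.000104). *Col4a4* was lower by -0.94 with sh1 (edgeR adjusted P = 0.00552) and by -0.91 with sh2 (edgeR adjusted P = 0.00737), without passing the limit on the fold. Against uninjected mice *Col4a4* with sh2 was at -0.42 (edgeR adjusted P = 0.101). *Col4a3* had 73.2, 58.6 and 53.6 CPM with nSrebp2 and 141, 129 and 98.8 CPM with GFP (log2 fold change -0.996, under the limit, edgeR adjusted P = 0.00101).

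With ctrl sh *Col4a3* had 487, 288 and 352 CPM, with sh1 189, 229 and 206 CPM and with sh2 142, 167 and 225 CPM. It fell with sh2 by 1.07 (SE 0.20, edgeR adjusted P = 0.00597), and with sh1 the log2 fold change was -0.85 (edgeR adjusted P = 0.0164). The value of *Col4a3* with sh1 missed the adjusted P without sh1 replicate 1 (edgeR adjusted P = 0.0758) or 3 (adjusted P = 0.0750). The uninjected mice had 131, 187 and 174 CPM, so the control hairpin group stood above them by 1.17 (SE 0.20, edgeR adjusted P = 0.0154). Against uninjected mice the value with sh2 was 0.11 (edgeR adjusted P = 0.710) and that with sh1 was 0.33 (adjusted P = 0.0841). Without sh2 replicate 1 (-0.93) or ctrl sh replicate 1 (-0.85) the sh2 value went under the limit, and without ctrl sh replicate 1 so did the difference between ctrl sh and uninjected mice (0.95).

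Of 15 laminin receptors, 6 were higher and 2 lower by the adjusted P with nSrebp2, beside 12.6% and 8.47% of all genes. With sh1 1 was higher and 2 lower, beside 3.06% and 2.28%. With sh2 5 were higher and 4 lower, beside 8.59% and 9.48%. The integrin beta1 gene *Itgb1*, the partner of most laminin-binding alpha chains, had means of 815 and 698 CPM with nSrebp2 and GFP (log2 fold change 0.22, edgeR adjusted P = 0.0919). The dystroglycan gene *Dag1* differed by 0.06 with nSrebp2 (edgeR adjusted P = 0.594), 0.04 with sh1 (adjusted P = 0.757) and -0.08 with sh2 (adjusted P = 0.471). *Bcam*, which encodes the Lutheran receptor for alpha5, was lower with nSrebp2 (-0.43, SE 0.07, edgeR adjusted P = 0.00328) and with sh1 (-0.37, SE 0.06, edgeR adjusted P = 0.00833). The sex term took *Bcam* with nSrebp2 to -0.30 (edgeR adjusted P = 0.140). Against uninjected mice *Bcam* was at -0.302 with nSrebp2 (edgeR adjusted P = 0.0629) and at -0.0456 with sh1 (adjusted P = 0.763). With sh2, where *Lama5* was highest, it differed by 0.05 (edgeR adjusted P = 0.686).

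*Itga3*, the integrin alpha3 gene, was lower with sh2 (-0.43, SE 0.10, edgeR adjusted P = 0.0128), and *Itgb4*, the beta4 gene of hemidesmosomes, was higher with sh2 (0.44, SE 0.10, edgeR adjusted P = 0.0190). *Itga3* missed the adjusted P without sh2 replicate 2 (edgeR adjusted P = 0.0537), and against uninjected mice it was at -0.18 with sh2 (adjusted P = 0.276). *Itgb4* missed it without sh2 replicate 1 (edgeR adjusted P = 0.0644), without ctrl sh replicate 1 (adjusted P = 0.0552) or 3 (adjusted P = 0.0828), and with the sex term (adjusted P = 0.0816). *Itga6* differed by -0.01 with nSrebp2 (edgeR adjusted P = 0.964), 0.26 with sh1 (adjusted P = 0.0977) and -0.20 with sh2 (adjusted P = 0.167). *Sdc1*, the surface proteoglycan syndecan 1, had 80.5, 91.1 and 130 CPM with sh2, against 38.8, 49.7 and 44.2 CPM with ctrl sh. It rose by 1.19 (SE 0.17, edgeR adjusted P = 0.00136), and without sh2 replicate 3 it was under the limit on the fold (0.96). With sh1 *Sdc1* was higher by 0.87 (edgeR adjusted P = 0.0176) and with nSrebp2 by 0.83 (edgeR adjusted P = 0.0216). Without sh1 replicate 1 or 3 or ctrl sh replicate 3 *Sdc1* with sh1 missed the adjusted P (edgeR adjusted P = 0.0610 to 0.0696), as did *Sdc1* with nSrebp2 without GFP replicate 1 (adjusted P = 0.0755) or 2 (adjusted P = 0.0658), with DESeq2 (adjusted P = 0.0604) and with the sex term (adjusted P = 0.240).

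Of the 14 enzymes that glycosylate dystroglycan, edgeR called 0 in the 3 comparisons of the study, with 4, 4 and 3 at an unadjusted p under 0.05 for nSrebp2, sh1 and sh2. By the adjusted P alone 1 was higher and 1 lower with nSrebp2, beside 12.6% and 8.47% of all genes. With sh1 1 was lower, beside 2.28%, and with sh2 1 was lower, beside 9.48%. *Large2*, which extends the laminin-binding sugar, had means of 2.77 CPM with GFP and 6.06 CPM in uninjected mice (log2 fold change -1.15, SE 0.21, edgeR adjusted P = 0.0314). That call held in 1 of the 6 fits without 1 library. It was lost without GFP replicate 1 (-1.22, edgeR adjusted P = 0.0939), 2 (-1.07, adjusted P = 0.151) or 3 (-1.15, adjusted P = 0.0693), and without uninjected replicate 2 (-1.08, adjusted P = 0.0920) or 3 (-1.25, adjusted P = 0.0612).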

How the data were processed

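RNA-seq counts of RPE from 18 mice, 3 in each of 6 groups, were used. Groups came from the sample labels, and the LacZ hairpin of the labels stands for ctrl sh. The authors removed ribosomal RNA, used a directional kit with paired-end reads, mapped to GRCm38 and counted with STAR, and the deposited values are whole-number read counts per gene, not normalized. The annotation and the strand setting are not given in the sources used here, so exons shared with a gene on the opposite strand are uncertain. Positions, exon lengths and coding ends came from GENCODE M21, to which 52489 of 52636 genes matched by ID; 16093 genes had no count.

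Each comparison was fitted on its own 2 groups by the quasi-likelihood test of edgeR 4.0.16 (R 4.3.3) after TMM scaling and filterByExpr, with Benjamini-Hochberg adjustment over all genes tested. A call needed an adjusted P under 0.05 and an absolute log2 fold change above 1. SEs came from the log2 fold change and the F statistic. Levels are CPM, with TMM factors computed across the 18 libraries. Counts per library, and so precision, are lowest in uninjected mice. Nothing says more of replicates than that each is 1 mouse. The most alike replicates still differed by a chi-square of 3.30 per degree of freedom, so none was taken as a repeat of another. No pairing by replicate number was used. The scripts were tested on simulated data.

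The members and the lists were chosen with earlier results of these data known. Named genes were all 9 chains, *Lamb3*, 12 set partner genes, up to 6 other called partners per comparison, 3 most-alike genes per chain, *Lrp2* and *Srebf2*. *Col4a3*, *Col4a4*, *Sdc1*, *Bcam*, *Smoc1*, *Frem2*, *Ntn4* and *Fras1* are also given where they were not called. Some items are not reported here. Alternatives were DESeq2 1.42.0, its size factors, other count filters, 1 fit of all libraries with and without a sex term (Y-linked genes at 10 CPM or more), a replicate block, no limit on the fold, uninjected controls, each library left out, another length and another prior count (0.5 for 2).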

Additional observations from a re-analysis of the deposited data

Results flagged for a closer look

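In a direct test of *Lrp2* sh2 against *Lrp2* sh1, 2 of 56 partner genes were called (edgeR, 3 libraries per group), beside 5.13% of all genes. By the adjusted P alone 21 passed, beside 22.4%. The effects of the hairpins against ctrl sh share the control libraries. *Nid2* was lower, with a log2 fold change of -1.499 (edgeR adjusted P = 4.5e-06). *Fras1*, of the Fraser complex, was higher by 1.10 (edgeR adjusted P = 0.000348). *Fras1* had 163, 233 and 252 CPM with sh2 and 97.0, 101 and 105 CPM with sh1, and without sh2 replicate 3 its value was 0.98, under the limit on the fold. With ctrl sh it had 148, 144 and 151 CPM, between the hairpins. Against ctrl sh it was at -0.55 with sh1 (edgeR adjusted P = 0.000971) and 0.56 with sh2 (edgeR adjusted P = 0.0210). The sh2 value missed the adjusted P without sh2 replicate 2 or 3 or any 1 ctrl sh library. Against uninjected mice *Fras1* with sh1 was at 0.03 (edgeR adjusted P = 0.895).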

How the results depend on the processing

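The log2 fold changes of the chains moved by less than 1 SD in 373 of 405 settings other than fits without 1 library. The SD was the pooled SD of log2 CPM in the 2 groups compared. All 324 fits without 1 library stayed within it too. Leaving out 1 of 3 libraries can hardly move a group mean that far, so nothing is read from the 324. By the adjusted P alone, 4 (nSrebp2), 2 (sh1), 5 (sh2), 2 (ctrl sh against uninjected) and 3 (sh2 against sh1) chains passed, and 28, 10, 24, 7 and 21 partner genes, with 2 for GFP against uninjected. In the same order, after nSrebp2 (12.6% higher and 8.47% lower), 5.33%, 18.1%, 6.49% and 22.4% of all genes passed, and 2.48% for GFP. Against uninjected mice, 1 chain was called with sh2, and 10 partner genes with nSrebp2 and 2 with sh1, beside 8.04%, 10.6% and 6.58% of all genes in those fits, and *Col4a3* with sh2 turned to 0.107 (edgeR adjusted P = 0.710); these fits use other control libraries. Same-numbered libraries of 2 groups had correlations of their deviations from the group means of -0.26 to 0.27. In no comparison were all 3 over 0.1, and at most 4 of 6 libraries correlated best with their own number (sh2 against sh1), so they were taken to share only a number. With a replicate block GFP against uninjected called 0 partner genes (*Large2* had an edgeR adjusted P of 0.0561), and ctrl sh against uninjected called 1 (*Col4a3* was at 1.15, edgeR adjusted P = 0.0737). With it sh2 against sh1 called 3, with *Lamb3* gained (1.10, edgeR adjusted P = 0.00840). With the block 1, 0 and 0 chains were called for nSrebp2, sh1 and sh2, and the cause of its changes was not tested. Without 1 library, called chains with sh2 ranged from 0 to 1 (1 without sh2 replicate 1 or ctrl sh replicate 3). Called partner genes ranged from 0 to 2 with sh1 (2 without sh1 replicate 2 or ctrl sh replicate 2), from 0 to 1 for GFP and from 1 to 3 for ctrl sh against uninjected, and from 1 to 2 for sh2 against sh1. *Lamb3*, with 12 to 164 counts, is limited by depth.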
